A study of Mus musculus with 2 samples.

Results

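Macrophages and microglia of the mouse neurohypophysis (NH), the posterior lobe of the pituitary, formed 2 of the 11 clusters that the study had built from its single-cell RNA-Seq data. They are named here cluster a and cluster b, after the names of their columns in the deposited table of cluster means, both of which read microglia and macrophage. The members were the single cells that fitted these columns, solved by least squares against all 11 columns. There were 69 cells of cluster a and 26 of cluster b, together 95 of the 528 cells that passed the limits on depth and mitochondrial share. The NH of 3-month-old C57/BL6 males had been dissected, dissociated and run in droplets as 2 pools of 5 mice each, without any treatment. The pools were thus 2 replicates of one condition. A pool mixes its 5 mice, and the dissected tissue also held cells of the neighbouring intermediate lobe (IL). No barcode was shared by the kept cells of the 2 pools.

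Microglia are the resident macrophages of the nervous tissue, which settle there in the embryo, survive on signals through the receptor *Csf1r* and renew themselves in place. Other macrophages line the vessels and coverings of the brain, and monocytes and dendritic cells enter from the blood. The NH lies outside the blood-brain barrier, and its macrophages sit among the axon endings that release oxytocin and vasopressin and among the pituicytes, the glia of this lobe. Major histocompatibility complex (MHC) class II molecules display peptides to helper T cells, and they are usually scarce on microglia of healthy parenchyma.

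In pool 1, 27 cells belonged to cluster a and 14 to cluster b, and in pool 2 these numbers were 42 and 12. Cluster b made up 34.1% of these cells in pool 1 (exact Clopper-Pearson 95% interval 20.1% to 50.6%) and 22.2% in pool 2 (12.04% to 35.6%), a mean of 28.2% ± 8.43 (SD, n = 2 pools). The intervals overlapped. Clusters a and b together were 15.02% of the kept cells of pool 1 (10.998% to 19.8%) and 21.2% of those of pool 2 (16.3% to 26.7%). These intervals, like all others given, cover counting error only.

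All levels are CPM, the unique molecular identifiers (UMIs, one per captured mRNA molecule) of a gene divided by all UMIs of that cluster in that pool and multiplied by 1000000. Cluster a held 48945 UMIs in pool 1 and 83982 in pool 2, and cluster b 39723 and 23928. A single UMI was therefore worth 20.4 and 11.9 CPM in cluster a, and 25.2 and 41.8 CPM in cluster b. The median cell of cluster a had 1607 UMIs in pool 1 and 1699 in pool 2, and that of cluster b 2450.0 and 1702. Their median mitochondrial shares lay between 3.62% and 5.15%, against 17.2% and 12.5% in the pituicytes of the 2 pools.

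The 5 genes given as markers of these cells were *Cx3cr1*, the receptor of fractalkine, *C1qa*, a chain of the first complement component, *Ctss*, a lysosomal protease, *Tyrobp*, a signalling adaptor, and *Ly86*, the partner of a Toll-like receptor homologue. Summed, they reached 19328 and 17028 CPM in cluster a of pools 1 and 2, and 14198 and 8484 CPM in cluster b. In the 6 other cell types they reached at most 437 CPM, in the T-cell like cells of pool 1. The clusters had been built on these and other genes, so that the levels describe the clusters and are no test of their identity. With each cell thinned at random to 1000 UMIs, *C1qa* was found in 98.6% of the cells of cluster a (95% interval 92.2% to 100%), in 76.9% of cluster b (56.4% to 91.03%) and in 2.04% of the pituicytes (0.559% to 5.14%), which should lack it. Before thinning these shares were 100%, 76.9% and 3.06%. No UMI of *C1qa* was found in 6 of the 26 cells of cluster b, while all 69 cells of cluster a had it. *C1qa* had itself entered the assignment of the cells, so that these shares are a description too.

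**Figure D1:**
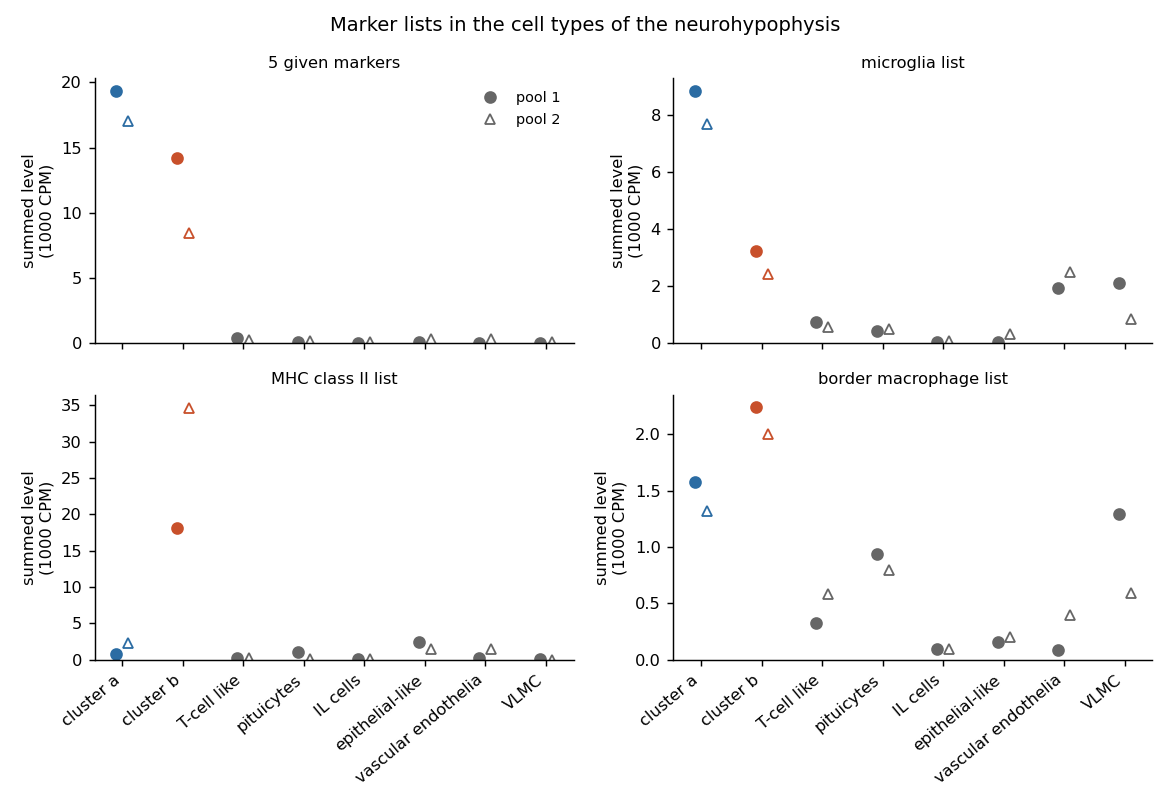
Summed level (in 1000 CPM) of 4 gene lists in clusters a and b and the 6 other cell types of the tissue, with one symbol per pool. The given markers stand above all other types in both macrophage clusters, MHC class II stands above them in cluster b alone (18176 and 34687 CPM, against 2485 CPM at most in the other types), and the microglia list is highest in cluster a.

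The lists hold genes that also occur elsewhere. *Sparc*, in the microglia list, was the leading gene of that list in endothelia, in vascular and leptomeningeal cells (VLMC) and in pituicytes, and *Maf*, in the border macrophage list, in pituicytes. The defining T-cell genes *Cd3d* and *Cd3e* had 0 UMIs in both clusters, and the endothelial genes *Emcn* and *Flt1* had 0 as well. The pituicyte list summed to 0 and 47.6 CPM in cluster a, and to 352 and 0 CPM in cluster b. *Pomc*, the hormone gene of the IL cells, stood at 919 and 953 CPM in cluster a and at 1662 and 543 CPM in cluster b. A single cell of cluster b in pool 1, which Scrublet marked as a doublet, held 53 of the 69 UMIs that the IL list had in that sum. The dendritic cell list summed to 61.3 and 95.3 CPM in cluster a and to 403 and 1045 CPM in cluster b, and the monocyte list to 20.4 and 59.5 CPM against 2819.5 and 502 CPM. Both lists were thus higher in cluster b in each pool. The T-cell list, at 20.4 and 298 CPM against 931 and 376 CPM, was led by the chemokine *Ccl5*. The anterior lobe list, which includes growth hormone, *Gh*, summed to 286 and 559.6 CPM against 75.5 and 1463 CPM, and the endothelial list, led by *Pecam1*, to 613 and 691 CPM against 705 and 878 CPM. The lists for neutrophils, B cells, NK cells, erythrocytes, pericytes, VLMC, epithelial-like cells and oligodendrocytes reached at most 167 CPM in any of the 4 sums. A filter left out 14 cells of cluster a and 8 of cluster b, which held 3 or more UMIs of another type's list or were marked as doublets. It counted the T-cell, endothelial, VLMC and epithelial-like lists, and the pituicyte list without *Ptn*. The other lists, among them those of the IL and the anterior lobe, were not counted. *Ccl5* and *Pecam1* were counted, and whether the cells left out held RNA of another type was not tested. Without these cells the contrast described next gave 13 genes higher in cluster b (11 of them among the 27 called with all cells). It gave 36 higher in cluster a (21 among the 39).

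To contrast the clusters, the log2 ratio of cluster b to cluster a was formed within each pool after 100 CPM had been added to both levels, which understates the ratio of weakly expressed genes. A gene was called when it was at least 2-fold apart in the same direction in both pools, among the 1294 genes with at least 20 UMIs over the 4 sums. The call rests on fold size alone, and no p-value is given, since the clusters had been separated by these same genes. Of the 1294 genes, 27 (2.09%) were higher in cluster b and 39 (3.01%) were higher in cluster a. With the normalization factors of edgeR's TMM method, which shifted the median of all genes by -0.20 on the log2 scale, the numbers were 20 and 51. Over the genes tested the mean log2 ratio had a median of -0.08 and a median SD between the pools of 0.36. Across these genes, which are not independent replicates, the log2 ratios of the 2 pools had a Pearson correlation of 0.446. Only 2 genes were 2-fold apart in opposite directions in the 2 pools.

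**Figure D2:**
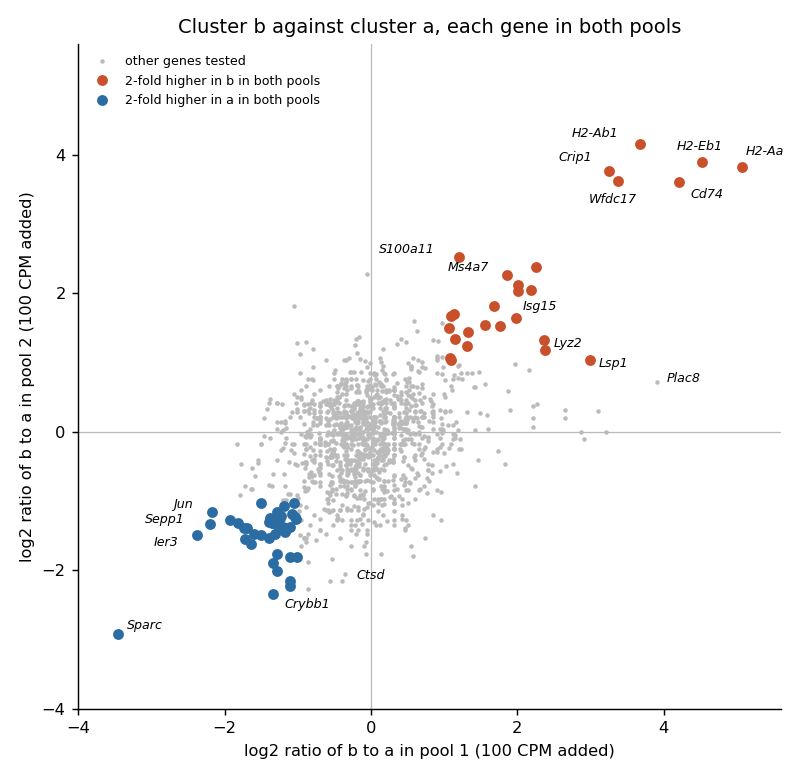
Log2 ratio of cluster b to cluster a in pool 1 (x axis) and pool 2 (y axis), 100 CPM added, for the 1294 genes tested; each dot is a gene. The 27 orange genes were at least 2-fold higher in cluster b in both pools and the 39 blue genes in cluster a, with the MHC class II genes, *Crip1* and *Wfdc17* farthest up and *Sparc* farthest down.

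Antigen presentation through MHC class II set cluster b apart. Of the 8 genes on this list 6 could be tested, and 4 were called, all higher in cluster b (2.09% of all genes). They were the genes of the classical class II chains, *H2-Aa*, *H2-Ab1* and *H2-Eb1*, and *Cd74*, the invariant chain that escorts them. The 3 chain genes lie within 59.0 kb on chromosome 17 (GRCm38), *H2-Ab1* at chr17:34257689-34269419, *H2-Aa* at chr17:34282744-34287823 and *H2-Eb1* at chr17:34305867-34316674. *H2-Aa* had 0 CPM in cluster a of pool 1 and 321 CPM in pool 2, and 3273 and 5851 CPM in cluster b, a mean log2 ratio of 4.45 ± 0.89 (SD, n = 2 pools). *H2-Eb1* had 61.3 and 250.1 CPM in cluster a and 3599.9 and 5099 CPM in cluster b, a log2 ratio of 4.21 ± 0.44. Both sums of cluster b lay far above both of cluster a, and cluster a of pool 2 was the higher of its pair for every one of the 4 genes.

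*H2-Ab1* reached 61.3 and 250.1 CPM in cluster a against 1964 and 6143 CPM in cluster b (3.92 ± 0.34). *Cd74*, the most abundant of the list, reached 388 and 1262 CPM against 8962 and 16549.6 CPM (3.91 ± 0.43). On the log2 scale the ratio between the clusters was larger than its SD over the pools in both genes, although in CPM the pools of cluster b differed by more for *H2-Ab1* than the clusters did in pool 1. The whole list summed to 858 and 2286 CPM in cluster a and to 18176 and 34687 CPM in cluster b, with a median log2 ratio of 3.91. By contrast, none of the 5 tested genes of the MHC class I list, which present peptides to cytotoxic T cells, was called (median -0.05), and *H2-K1* had 1022 and 1179 CPM in cluster a and 1032 and 1003 CPM in cluster b. After thinning, *H2-Aa* was found in 5.80% of the cells of cluster a (1.60% to 14.2%), 53.8% of cluster b (33.4% to 73.4%) and 2.04% of pituicytes (0.559% to 5.14%). The intervals of cluster a and of the pituicytes overlapped, and they cover counting error over cells, not the spread of the pools. *Cd74* was found in 30.4% of the cells of cluster a (19.9% to 42.7%) against 3.06% of pituicytes (1.13% to 6.54%). In the epithelial-like cells the share of *Cd74* was higher than in cluster a, at 47.8% (26.8% to 69.4%). In the remaining types it ran from 0% in VLMC to 15.4% in endothelia.

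Promoters of class II genes carry a short module of boxes, the last of which, the Y box, holds the letters TGATTGG. The 160 bases before the start of *H2-Aa* and *H2-Eb1* are shown, the 2 of the 4 called genes of the list that had an entry in the RefSeq table (GRCm38.p6), at chr17:34287824-34287983 on the minus strand and chr17:34305707-34305866 on the plus strand, with each match of TGATTGG, searched on both strands, in capitals.
H2-Aa: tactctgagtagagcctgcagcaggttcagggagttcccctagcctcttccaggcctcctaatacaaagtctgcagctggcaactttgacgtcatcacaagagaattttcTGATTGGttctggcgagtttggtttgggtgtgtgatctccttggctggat
H2-Eb1: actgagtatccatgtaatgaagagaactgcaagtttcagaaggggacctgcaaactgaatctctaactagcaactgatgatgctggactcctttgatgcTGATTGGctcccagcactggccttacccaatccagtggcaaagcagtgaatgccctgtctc
The match began 50 bases before the start of *H2-Aa* and 61 bases before that of *H2-Eb1*, on the strand of the gene in both. Of the 32851 promoters of the table, 5.93% held it in the same window. A match of letters is a description of the sequence and no evidence that a factor bound there.

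Genes of the interferon response were the next group. Interferons induce a shared set of antiviral genes, among them *Isg15*, a ubiquitin-like modifier, *Rsad2*, which encodes viperin, *Ifit3*, which restricts viral RNA, and *Ifi204*, a sensor of DNA. Of the 14 genes on the list 9 could be tested, and these 4 were called, all higher in cluster b (2.09% of all genes), with a median log2 ratio over the list of 1.23. None of the 4 was called without the cells that held other types' UMIs or were marked as doublets, where the mean log2 ratios were 1.46 for *Isg15*, 1.43 for *Rsad2*, 1.34 for *Ifit3* and 1.12 for *Ifi204*. *Rsad2* and *Ifit3* had fewer than 20 UMIs without those cells, and also with cells thinned to 1000 UMIs, and could not be called in either setting. *Isg15* and *Ifi204* had enough UMIs without those cells but were not 2-fold apart in both pools. *Isg15* had 81.7 and 35.7 CPM in cluster a and 730.1 and 459.7 CPM in cluster b (2.12 ± 0.10). *Rsad2* had 0 and 47.6 CPM in cluster a and 302 and 502 CPM in cluster b (2.02 ± 0.01). The clusters did not overlap in these genes, but the counts were small, with between 11 and 29 UMIs of *Isg15* and 12 UMIs of *Rsad2* in each sum of cluster b.

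*Ifi204* reached 163 and 71.4 CPM in cluster a against 478 and 459.7 CPM in cluster b, and *Ifit3* reached 40.9 and 59.5 CPM against 252 and 334 CPM. *Ifi27l2a*, the most abundant gene of the list, stood at 695 and 857 CPM in cluster a and 2819.5 and 1337 CPM in cluster b and was not called, since pool 2 gave a log2 ratio of 0.59. *Bst2*, which tethers budding virus to the cell, stood at 347 and 405 CPM against 881 and 794 CPM and was 2-fold apart in pool 1 alone. The summed level of the list was 2697 and 2084 CPM in cluster a and 8308 and 5767 CPM in cluster b. *Ifi203*, outside the list, had 0 UMIs in cluster a and 12 and 8 in cluster b, at least 13.9-fold higher when 3 UMIs are set as the limit for cluster a as a whole. These 20 UMIs were the fewest that allowed a call, and the call was lost under 8 of the 18 alternative settings, among them the settings without the deepest cell of cluster b, without the 5 cells that lacked C1q and with cells thinned. In each of the 8 the gene had too few UMIs to be tested, and its mean log2 ratio there lay between 1.94 and 2.58.

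The interferon-stimulated response element is built of repeated GAAA blocks, and its core was searched as GAAANNGAA on both strands. The 160 bases before the start of *Isg15*, *Rsad2* and *Ifit3* are shown, the 3 of the 4 called genes of the list that had an entry in the RefSeq table (GRCm38.p6), at chr4:156200819-156200978 (minus strand), chr12:26456453-26456612 (minus strand) and chr19:34583369-34583528 (plus strand), with matches in capitals.
Isg15: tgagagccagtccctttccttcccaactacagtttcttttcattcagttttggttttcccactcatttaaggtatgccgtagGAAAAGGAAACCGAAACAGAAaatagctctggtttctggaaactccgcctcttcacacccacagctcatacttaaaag
Rsad2: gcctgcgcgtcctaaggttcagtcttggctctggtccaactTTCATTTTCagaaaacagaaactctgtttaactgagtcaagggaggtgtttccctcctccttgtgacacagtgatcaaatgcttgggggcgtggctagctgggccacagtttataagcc
Ifit3: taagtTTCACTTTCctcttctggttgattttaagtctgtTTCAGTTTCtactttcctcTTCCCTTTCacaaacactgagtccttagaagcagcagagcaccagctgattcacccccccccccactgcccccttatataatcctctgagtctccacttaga
There were 3 overlapping matches in *Isg15*, 1 in *Rsad2* and 3 in *Ifit3*, those of *Isg15* on the strand of the gene and those of *Rsad2* and *Ifit3* on the opposite strand. In all, 4.26% of the 32851 promoters held a match in this window.

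Several single genes outside the lists were also higher in cluster b. *Crip1*, a small LIM domain protein, had 61.3 and 35.7 CPM in cluster a and 1435 and 1755 CPM in cluster b (3.51 ± 0.37). Of its UMIs in cluster b of pool 1, 75.4% came from the deepest cell, and the mean log2 ratio was 2.77 without that cell and 1.49 without the 5 cells that lacked C1q, with the call kept in both cases. *Wfdc17*, a secreted protein of activated macrophages, had 123 and 47.6 CPM in cluster a and 2215 and 1713 CPM in cluster b (3.499 ± 0.17). *Vim*, an intermediate filament gene, had 0 UMIs in cluster a and 15 and 10 UMIs in cluster b, at least 17.4-fold higher against the same limit of 3 UMIs. These UMIs of *Vim* came from 4 of the 26 cells, and its mean log2 ratio of 2.31 became 1.39 without the deepest cell of cluster b and 0.20 without the 5 cells that lacked C1q, with no call in either case. These genes were absent or nearly so from cluster a. Together with the 4 class II genes, *Crip1* and *Wfdc17* had the 6 largest mean log2 ratios of the contrast. After thinning *Crip1* was found in 26.9% of the cells of cluster b (11.6% to 47.8%), 4.35% of cluster a (0.906% to 12.2%), 7.65% of pituicytes (4.35% to 12.3%) and 61.9% of the T-cell like cells (45.6% to 76.4%). *Wfdc17* was found in 46.2% of the cells of cluster b (26.6% to 66.6%), 7.25% of cluster a (2.39% to 16.1%) and 0.510% of pituicytes (0.0129% to 2.81%).

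*Lyz2*, lysozyme of myeloid cells, was present in both clusters, at 674 and 822 CPM in cluster a and 3902 and 2215 CPM in cluster b (1.85 ± 0.74). A single cell in each pool held 54.2% and 49.1% of the *Lyz2* UMIs of cluster b, and without it the levels were 2007 and 1205 CPM. In pool 2 this was less than 2-fold above cluster a. After thinning *Lyz2* was found in 50% of the cells of cluster b (29.9% to 70.1%) and 46.4% of cluster a (34.3% to 58.8%). *Ms4a7*, from the border macrophage list, stood at 204 and 59.5 CPM against 1007 and 669 CPM (2.07 ± 0.29). The related gene *Ms4a6c* was called as well (1.75 ± 0.09), as were *Tmsb10*, which binds actin monomers (1.55 ± 0.02), *S100a11* (1.86 ± 0.94), *Lsp1* (2.01 ± 1.38), *Mnda* (1.65 ± 0.16) and *AI662270* (1.82 ± 0.24). Without the 5 cells of cluster b that lacked C1q, *Tmsb10*, *S100a11*, *Lsp1* and *AI662270* were not called, and the mean log2 ratio was 0.17 for *Tmsb10*, 0.17 for *Lsp1* and 1.12 for *S100a11*. For *AI662270* it was 1.68. The calls of *AI662270* and *S100a11* were lost only because fewer than 20 UMIs were left. *Ms4a7* was the only member of the border macrophage list to be called (2.09% of all genes). The list summed to 1573 and 1322 CPM in cluster a and to 2241 and 2006 CPM in cluster b, 4 of its 13 genes had no UMI in each cluster, and only 3 could be tested. The mannose receptor *Mrc1*, a defining gene of border macrophages, was found in 7.25% of the cells of cluster a (2.39% to 16.1%) and 3.85% of cluster b (0.0973% to 19.6%) after thinning.

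Cluster a was marked by the genes of microglia. Of the 13 genes on the microglia list 11 could be tested, and 6 were called, all higher in cluster a (3.01% of all genes), with a median log2 ratio of -1.14. Of the 6 calls 4 were kept without the deepest cell of cluster b, 3 without the cells that held other types' UMIs or were marked as doublets, 2 (*Sparc* and *Crybb1*) without the 5 cells of cluster b that lacked C1q, and 1 (*Sparc*) with cells thinned to 1000 UMIs. The median of the list stayed between -1.36 and -0.95 under all 18 alternatives. *Sparc*, a secreted matrix protein, showed the largest difference, with 1001 and 976 CPM in cluster a and 0 and 41.8 CPM in cluster b (-3.19 ± 0.38), the latter being a single UMI. After thinning, 47.8% of the cells of cluster a (35.6% to 60.2%) and 3.85% of cluster b (0.0973% to 19.6%) had *Sparc*. So did 28.6% of pituicytes (22.4% to 35.4%), 69.2% of endothelia (38.6% to 90.9%) and 63.6% of VLMC (30.8% to 89.1%). The pools of each cluster were close to each other and far from the other cluster.

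*P2ry12*, the ADP receptor that steers microglial processes, had 469.9 and 345 CPM in cluster a and 50.3 and 83.6 CPM in cluster b (-1.60 ± 0.46), the latter from 2 UMIs in each pool. *Tmem119*, a membrane protein found on microglia, had 654 and 488 CPM against 126 and 125 CPM (-1.56 ± 0.25). *Crybb1* had 469.9 and 619 CPM against 126 and 41.8 CPM (-1.84 ± 0.71). In these genes cluster b held few UMIs but was not empty. *Gpr34*, a receptor for lysophosphatidylserine, had 593 and 703 CPM against 227 and 251 CPM (-1.14 ± 0.08). *Sall1*, a transcription factor of microglial identity, was found in 17.4% of the cells of cluster a after thinning (9.32% to 28.4%) and in 0 of 26 cells of cluster b (0% to 13.2%). Before thinning it was found in 17 of the 69 cells of cluster a and in 1 of the 26 of cluster b.

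**Figure D3:**
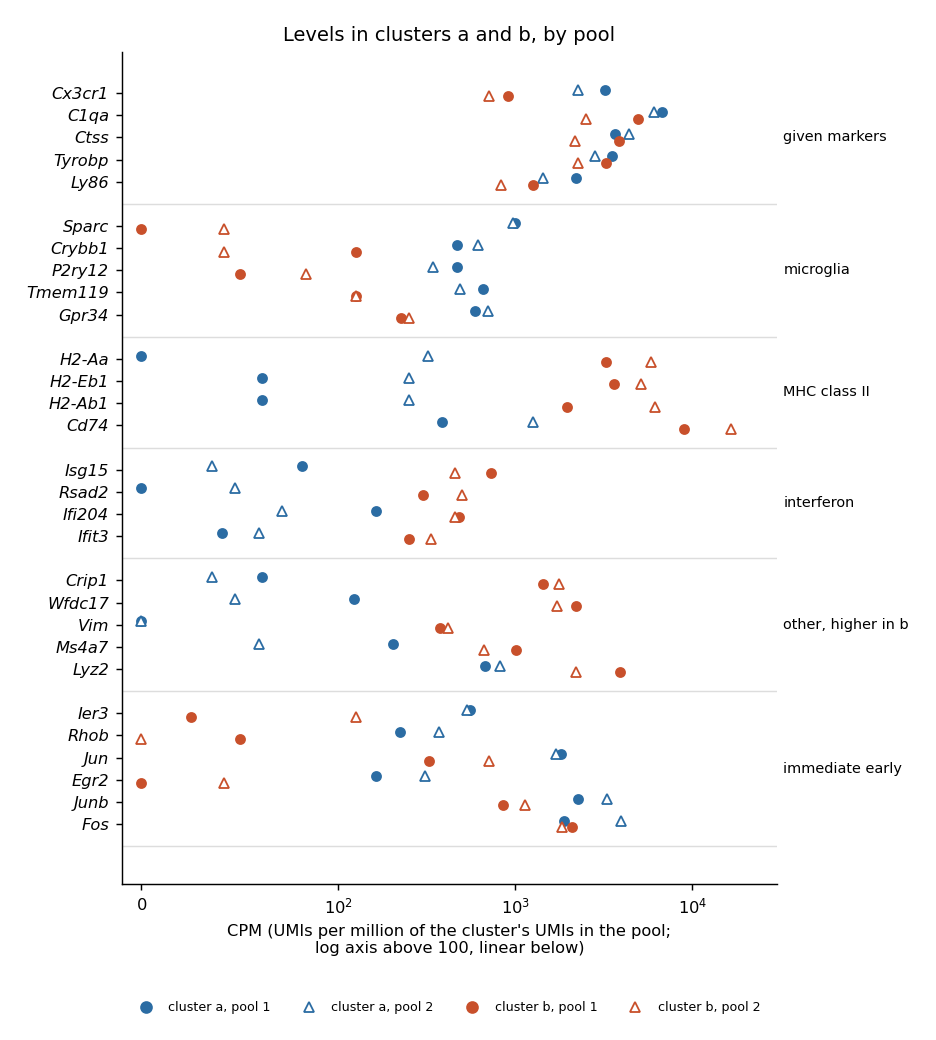
CPM of 29 genes in clusters a (blue) and b (orange), filled circles for pool 1 and open triangles for pool 2, on an axis that is logarithmic above 100 and linear below. Blue and orange symbols separate in the microglia, MHC class II and interferon groups, whereas *Tyrobp*, *Ctss* and *Fos* overlap.

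Of the 9 receptors listed through which macrophages receive survival and steering signals, 8 could be tested and 2 were called, both higher in cluster a (3.01% of all genes), with a median over the list of -0.23. *Csf1r* had 1675 and 1429 CPM in cluster a and 579 and 543 CPM in cluster b (-1.32 ± 0.10, and -0.82 without the 5 cells of cluster b that lacked C1q, where it was not called), and *Cx3cr1* had 3208 and 2274 CPM against 906 and 710.5 CPM (-1.63 ± 0.12). *Tgfbr1*, a receptor of TGF-beta, stood at 593 and 619 CPM against 579 and 585 CPM. The other given markers were not called. *C1qa* had 6763 and 6108 CPM in cluster a and 4909 and 2508 CPM in cluster b, and *Ly86* had 2207 and 1441 CPM against 1259 and 836 CPM.

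Of the ligands listed, 4 that act on these receptors had no UMI in the macrophages themselves. *Csf1* had 0 UMIs in both clusters and 11 and 18 UMIs in the pituicytes (46.7 and 71.0 CPM). *Il34*, the other ligand of *Csf1r*, had a single UMI in the pituicytes of pool 2 and 0 in either cluster. *Cx3cl1*, the ligand of *Cx3cr1*, had 0 UMIs in both clusters, 25 and 19 UMIs in the IL cells (88.9 and 76.1 CPM) and 7 and 8 UMIs in the pituicytes. *Tgfb2* likewise had 0 UMIs in both clusters and 21 and 14 in the pituicytes. At the depth of the smaller cluster the 0 of *Csf1* does not exclude levels like those in the pituicytes, since 1 UMI in cluster b was worth 25.2 or 41.8 CPM. In cluster a the upper 95% limit for 0 UMIs was 75.4 CPM in pool 1 and 43.9 CPM in pool 2. The limit of pool 2 lay below both *Csf1* levels of the pituicytes and that of pool 1 above both. Within counting error, the 0 thus excludes such levels in cluster a of pool 2 but not in pool 1 taken alone. *Tgfb1* did come from the macrophages, with 225 and 250.1 CPM in cluster a and 151 and 209 CPM in cluster b.

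Other genes higher in cluster a came from several pathways. *Trem2*, a lipid receptor that signals through *Tyrobp*, had 1144 and 1143 CPM in cluster a and 428 and 376 CPM in cluster b (-1.31 ± 0.10), and was the only called gene among the 8 tested of the disease-associated microglia list (3.01% of all genes). *P2ry12* was the only one called of 3 tested purinergic receptors and channels, and *Csf1r* and *Trem2* were the 2 called of 14 pan-macrophage genes (median -0.45), again beside 3.01% of all genes. None of *P2ry12*, *Csf1r* and *Trem2* was called with cells thinned to 1000 UMIs or without the 5 cells that lacked C1q. *Fcgr2b*, the inhibitory receptor for immunoglobulin and the only one called of 8 tested Fc, scavenger and pattern receptors (3.01% of all genes), had 469.9 and 429 CPM against 126 and 41.8 CPM (-1.62 ± 0.40). Of the lysosomal list, *Ctsl*, a cathepsin, was higher in cluster a (-1.63 ± 0.73) and *Lyz2* in cluster b. For *Lyz2*, a single cell in each pool held 54.2% and 49.1% of the UMIs of cluster b. *Sepp1*, the carrier of selenium, was abundant at 4066 and 3215 CPM in cluster a against 806 and 1212 CPM (-1.77 ± 0.61).

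Outside the lists, *Glul*, glutamine synthetase (-1.63 ± 0.02), the immune checkpoint gene *Vsir* (-1.57 ± 0.35), *Ltc4s*, which makes leukotriene C4 (-1.54 ± 0.22), *Erp29* (-1.50 ± 0.01), *Rhoh* (-1.46 ± 0.49) and *Serpine2* (-1.41 ± 0.56) were also higher in cluster a. *Adgrg1*, an adhesion receptor of microglia, had 7 and 20 UMIs in cluster a and 0 in cluster b, at least 4.31-fold higher against a limit of 3 UMIs. *A930007I19Rik*, annotated as an antisense RNA, had 10 and 15 UMIs against 0. In each of these genes both sums of cluster a were higher than either of cluster b. *Vsir*, *Ltc4s*, *Rhoh* and *Serpine2* were not called without the 5 cells of cluster b that lacked C1q, and *Rhoh* and *Serpine2* not without the deepest cell either. The mean log2 ratios without the cells that lacked C1q were -1.26 for *Vsir*, -1.28 for *Ltc4s*, -1.40 for *Rhoh* and -1.35 for *Serpine2*, with 1 pool short of 2-fold in each gene. *Serpine2* was called under 9 of the 18 alternatives. The 9 include either pool left out, 50 CPM added and a lower filter or none, which could not end a call.

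Immediate early genes, which respond within minutes to stimuli and also to the dissociation of a tissue, were called for 5 of the 17 tested members, all higher in cluster a (3.01% of all genes), with a median of -0.65. *Jun* had 1818 and 1703 CPM in cluster a and 327 and 710.5 CPM in cluster b (-1.66 ± 0.72), and *Junb* had 2268 and 3310.2 CPM against 856 and 1128 CPM (-1.39 ± 0.12). The others were *Ier3* (-1.94 ± 0.62), *Rhob* (-1.67 ± 0.79) and *Egr2* (-1.46 ± 0.09). *Fos* had 1879.7 and 3953 CPM against 2089 and 1839 CPM, so that the clusters overlapped. Of the 5 calls 2 were kept with cells thinned to 1000 UMIs. *Junb*, *Rhob* and *Egr2* were lost there, at mean log2 ratios of -1.21, -1.23 and -1.23, *Egr2* with fewer than 20 UMIs. Without the cells that held other types' UMIs or were marked as doublets 3 calls were kept. *Jun* and *Rhob* were lost there, at -1.46 and -1.47. *Jun* was also not called among cells with under 10% mitochondrial UMIs, at a mean log2 ratio of -1.79, since pool 2 gave -0.94. *Ier3* was called under all 18 alternatives. Among these, either pool left out, 50 CPM added and a lower filter or none could not end a call. The list summed to 12075 and 18873 CPM in cluster a and to 6898 and 9487 CPM in cluster b, against 11608 and 11297 CPM in the IL cells, 12339 and 24904 CPM in the endothelia and 3548 and 2698 CPM in the pituicytes. The share of this response that arose during dissociation was not tested.

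Chemokines and cytokines were abundant in both clusters, and none of the 10 tested was called (median -0.34). *Ccl4* had 5209.9 and 7299 CPM in cluster a and 2819.5 and 2549 CPM in cluster b, and *Ccl3* had 1818 and 2501 CPM against 1284 and 1296 CPM. *Ccl12* went the other way, with 1839 and 1095 CPM against 2819.5 and 3511 CPM. *Il1b* stood at 695 and 1559.9 CPM against 1007 and 585 CPM. The order of the clusters in *Il1b* was thus opposite in the 2 pools.

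The cell cycle list summed to 409 and 631 CPM in cluster a and to 1662 and 1212 CPM in cluster b, with 1 gene that could be tested and none called. Most UMIs of this list in cluster b of pool 1 came from a single cell, the deepest of the cluster. None of the tested genes was called in the lists for complement (6 tested), lipid handling (5), iron handling (4), glycolysis (5), heat shock (7), actin and motility (11), NF-kB feedback (8), the mitochondrial genome (11) or the cytosolic ribosome (77). The medians of these lists ran from -0.66 for complement to 0.34 for actin and motility. *Apoe*, the lipid carrier, was the most abundant of the lipid genes, with 14710.4 and 7049 CPM in cluster a and 15356 and 12579 CPM in cluster b (0.44 ± 0.54), well above the 2096 and 2166 CPM of pituicytes. The difference between the 2 pools of cluster a exceeded that between the clusters in pool 1.

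The sums hide a spread between cells. *Apoe* ran from 0 to 5.26% of a cell's UMIs in cluster a of pool 1 and from 0 to 9.83% in pool 2, with medians of 0.664% and 0.216%. In cluster b its medians were 1.53% and 1.25%, higher in each pool than those of cluster a. In cluster a 10 of 42 cells of pool 2 and 3 of 27 of pool 1 had none, while 11 and 12 cells held 1% or more. The immediate early list ran from 0 to 7.29% over the 69 cells of cluster a, with a median of 1.22%, and from 0 to 4.48% in cluster b, with a median of 0.305%. The microglia list was found in all 69 cells of cluster a, at 0.107% to 1.76%, and was absent from 4 of the 26 cells of cluster b, with medians of 0.822% and 0.212%.

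**Figure D4:**
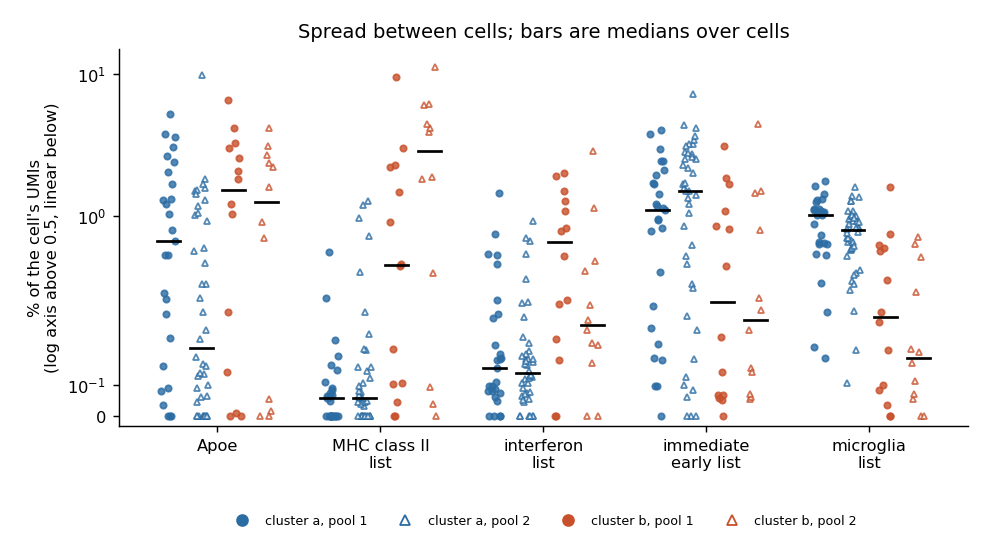
Share of each cell's UMIs taken by *Apoe* and 4 gene lists, by cluster and pool; each symbol is a cell, bars are medians over cells, and the axis is logarithmic above 0.5% and linear below. Cells of cluster b spread from 0 to 11.2% in MHC class II, whereas cluster a stays at or below 1.27%.

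MHC class II took between 0 and 11.2% of the UMIs of single cells in cluster b, with a median of 1.19%, and between 0 and 1.27% in cluster a, with a median of 0.0577%. At least 1% was reached by 13 of the 26 cells of cluster b (5 of pool 1 and 8 of pool 2) and by 2 of the 69 of cluster a. The value of 1% is an arbitrary mark on a range, and 4 cells of cluster b and 5 of cluster a lay between 0.5% and 2%. After thinning, 20 of the 26 cells and 33 of the 69 cells held at least 1 UMI of the list.

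The C1q chains, *C1qa*, *C1qb* and *C1qc* together, divided the cells of cluster b further. All 69 cells of cluster a had UMIs of these genes, at 0.673% to 3.33% of their total. In cluster b, 5 cells had none, 1 in pool 1 and 4 in pool 2, and all 5 held at least 1% MHC class II, with a median of 3.91%. In these 5 cells the 5 given markers took a median of 0.143% and were at 0 in 2 cells, *Apoe* a median of 0.0119%, and *Lyz2* was at 0 in 4. *Crip1* was found in all 5, at a median of 0.306%, and genes of the dendritic cell list in 4, at a median of 0.226%. The choice of these cells fixed *C1qa* at 0. The 4 other given markers had the same median of 0.143% in them, against 0.775% in the other 21 cells of cluster b and 1.15% in cluster a, where no cell was at 0. The 5 cells are described here by their genes only, and the name of the deposited column may not describe them. Without them the mean share of cluster b was 24.25%, against 28.2% with all cells.

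A further 8 cells of cluster b, 4 from each pool, had both C1q and at least 1% MHC class II. Their C1q share had a median of 0.987% and *Apoe* a median of 2.38%, *Wfdc17* was found in 7 of the 8, *Lyz2* in all, and *Crip1* in none. *Wfdc17* was at 0 in 3 of the 5 cells without C1q, all of which held *Crip1*. The dendritic cell and monocyte lists were each at 0 in 7 of the 8. The microglia list took a median of 0.186% in these cells.

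The remaining 13 cells, 9 from pool 1 and 4 from pool 2, had C1q and less than 1% MHC class II. Their median for the interferon list was 0.829%, against 0.275% in the 8 cells above and 0.143% in cluster a, and 8 of the 13 held at least 0.5%. Their microglia list reached a median of 0.569%, with 2 cells at 0. One of the 13, in pool 1, held 98 of the 124 UMIs that the monocyte list had in all of cluster b, 79.0%, and 1 UMI of the C1q chains. *Plac8*, of that list, accordingly had 1409.8 CPM in cluster b of pool 1 and 83.6 CPM in pool 2, and *Ly6c2* had 629 and 0 CPM.

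**Figure D5:**
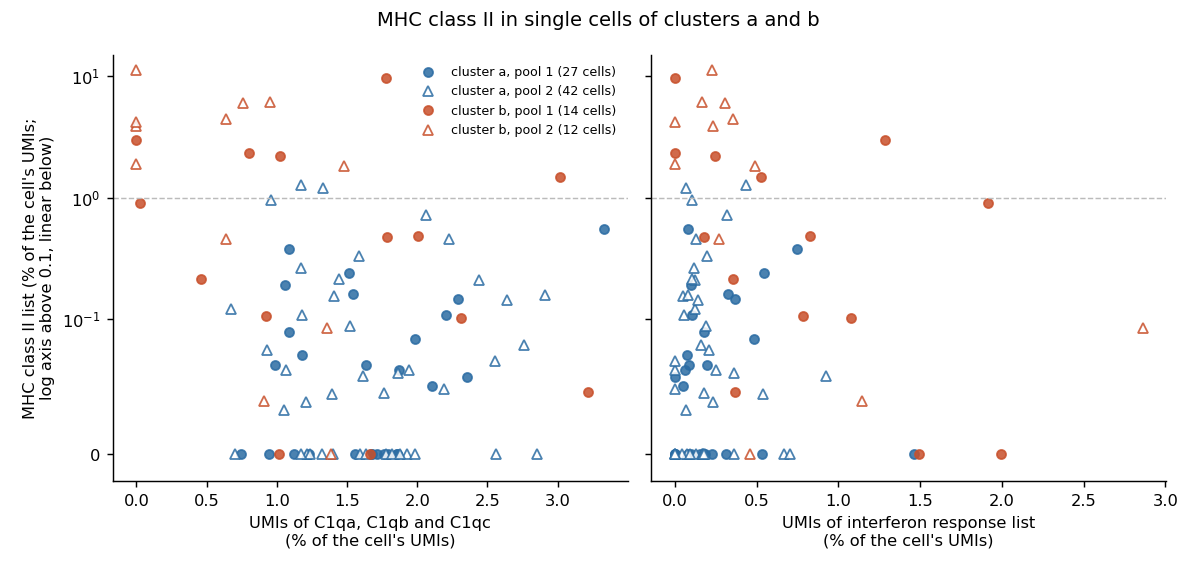
MHC class II list (y axis, % of a cell's UMIs, logarithmic above 0.1) against the C1q chains (left) and the interferon list (right), one symbol per cell. The 5 cells without C1q lie at the left edge above the dashed line at 1%, and of the 7 cells of cluster b with at least 1% interferon UMIs 6 lie below it.

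The deepest cell of cluster b held 8407 UMIs, 21.2% of the UMIs of the cluster in pool 1, and was one of the 5 without C1q. It supplied 34.9% of the class II UMIs and 75.4% of the *Crip1* UMIs of that sum. Of the same sum it held 40 of the 66 UMIs of the cell cycle list and 26 of the 37 of the T-cell list. Without this cell 23 genes were higher in cluster b and 29 in cluster a. Without the 5 cells that lacked C1q these numbers were 28 and 24, of which 18 and 15 had been called with all cells. *H2-Aa*, *H2-Ab1*, *H2-Eb1*, *Cd74*, *Crip1*, *Wfdc17*, *Ms4a7* and *Ms4a6c* were called in either case. *Vim*, *Trem2*, *Ctsl* and *Rhob* were no longer called in either. For *Trem2* the mean log2 ratio was -1.17 without the deepest cell and -0.84 without the cells that lacked C1q. For *Rhob* the mean log2 ratio was -1.61 in both cases, against -1.67 with all cells, and for *Ctsl* it was -1.49 without the deepest cell and -1.29 without the cells that lacked C1q, pool 1 being short of 2-fold in both genes. The calls of *Csf1r*, *P2ry12*, *Tmem119* and *Sepp1* were lost, at mean log2 ratios from -0.82 for *Csf1r* to -1.33 for *P2ry12*, when the cells without C1q were left out.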

How the data were processed

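The deposited counts are UMI counts per gene and barcode, made by the authors with Cell Ranger (mm10, 1500 forced cells), not normalized. Those of pool 2 held 1500 barcodes, but those of pool 1 held all 737280, of which 170936 had a UMI. For pool 1 the 1500 barcodes with most UMIs were therefore taken here. The deposited table of means holds UMIs per 10000 on a linear scale, which the authors averaged over the cells of both pools per cluster with Seurat. Cells were kept with over 1000 and under 10000 UMIs, over 400 and under 5000 genes and under 25% mitochondrial UMIs. Each assigned cell had a least-squares weight, multiplied by the number of cells of the column, of at least 0.972 in its own column and at most 0.00333 in any other. The means of the assigned cells differed from the deposited ones by over 0.05 in 32 of 15025 genes for cluster a (at most 0.182) and in 36 for cluster b (at most 0.459). Members, the 41 gene lists and the rules were chosen with earlier results of these data known. Named were up to 6 called genes and up to 4 genes with most UMIs of each list, the given markers, and the 10 largest called ratios in each direction outside the lists. Of the listed symbols, 3 had no row. Some genes that this rule names are not reported here. Scrublet (scanpy 1.11.5) marked 1 of the 95 cells, and marked cells were kept. Python 3.11.15, edgeR 4.0.16 and DESeq2 1.42.0 were used, the last 2 for scaling factors only, as alternatives. Gene positions are from GENCODE (GRCm38), and promoters from RefSeq.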

Additional observations from a re-analysis of the deposited data

Results flagged for a closer look

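Barcodes outside the limits on depth and mitochondrial share, on which the clusters were not built, also held macrophage genes, counted where at least 5 UMIs and 1% of the UMIs came from the pan-macrophage and given marker lists. Among the 1500 barcodes of each pool with most UMIs, there were 128 such barcodes of 1227 left out in pool 1 and 121 of 1245 in pool 2. Too few UMIs or genes kept out 124 and 120 of them, and their median depth was 427 and 380 UMIs. The MHC class II list took 0.839% and 1.13% of their UMIs, between the shares of cluster a (0.0858% and 0.229%) and cluster b (1.82% and 3.47%). The microglia list took 0.574% and 0.426%, also between those of cluster a (0.883% and 0.767%) and cluster b (0.322% and 0.242%). Of the 3 other lists compared, each lay between the clusters in 1 pool and outside them in the other, the immediate early list in pool 2 (0.5003%, against 1.89% in cluster a and 0.949% in cluster b), the interferon list in pool 1 (0.246%, against 0.270% and 0.831%) and the border macrophage list in pool 1 (0.228%, against 0.157% and 0.224%).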

How the results depend on the processing

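Of 18 alternatives, 3 were chosen after seeing the data. The 27 genes higher in cluster b became 42 with 50 CPM added and 17 with 200 CPM added. They became 17 at 40 UMIs or more and 41 without a filter. With cells thinned to 1000 UMIs they became 15, and in the authors' means 50. Cells holding 3 or more UMIs of the T-cell, pituicyte, endothelial, VLMC or epithelial-like lists, or marked as doublets, were also left out. That gave 13 genes. The 39 genes higher in cluster a became 61 with 50 CPM added, 19 with 200 CPM added, 64 in the authors' means and 24 without the 5 cells of cluster b that lacked C1q. With either pool left out, 61 to 88 genes were higher in cluster b and 99 to 139 in cluster a, since a call then rests on 1 pool. No mean ratio of a called gene over the pools changed its sign, but single pools did, with -0.79 for *Tmsb10*, -0.78 for *Lsp1* and -0.44 for *Fxyd5* in pool 2 without the cells that lacked C1q, and -0.45 for *Fxyd5*, named after its values were seen, in pool 1 with cells thinned. Calls held under all 18 alternatives for *Cd74*, *H2-Aa*, *H2-Ab1*, *H2-Eb1*, *Crip1*, *Wfdc17*, *Ms4a7* and *Ms4a6c* in cluster b. They also did for *Sparc*, *Ier3*, *Cx3cr1*, *Glul*, *Fcgr2b* and *Erp29* in cluster a. Some alternatives could not end a call, since they only eased the rule. These were either pool left out, 50 CPM added, and a filter at 10 UMIs or none. A planned division of the 95 cells by Ward clustering put 1 cell apart from the other 94 and gave no value. The cause of these changes was not tested. The depth of cluster b limits the contrast, since 1 UMI was worth 25.2 or 41.8 CPM there, and 2 pools allow no estimate of error beyond their difference.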

Other observations

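A cell of pool 1 that was assigned to the pituicytes held 9070 UMIs, of which 214 belonged to the MHC class II list, 2.36% of its UMIs and most of the 246 that this list had in all pituicytes of that pool. It held 17 UMIs of the dendritic cell list and 0 of the pituicyte list.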
